A study of Homo sapiens with 2 samples.

Results

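The genes described here are 41 genes of transforming growth factor beta (TGF-beta) and bone morphogenetic protein (BMP) signalling, taken as a list of ligands, receptors, SMAD proteins, extracellular regulators and targets. The rule uses no measured value, but the list was drawn up with earlier results of these data known. A gene entered when a row of the array carried its symbol and no other. This held for 40 of the 41, each with 1 row, out of 22411 genes with such a row in the whole series. BMPR1A, a BMP receptor, was not analysed here. RNA came from MHCC97H, a human liver cancer cell line, in GP73 knockdown cells (sample title MHCC97HshGP73) and in control cells (sample title MHCC97Hshv), which the labels describe as expressing a high level of GP73. Both were grown in medium with 10% fetal bovine serum and are not described as otherwise treated. GP73 is a Golgi membrane protein encoded by GOLM1, and the study sought genes that act with or downstream of it in liver cancer cell growth. Each group was measured on 1 Affymetrix array, so no value has a replicate error, no test between the groups was made, and every difference compares these 2 arrays only. The labels do not say whether the cells were 1 clone or a mixed population. Beyond the letters sh in both sample titles, they do not spell out what agent made the knockdown.

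Ligands of this family bind pairs of type I and type II receptor kinases at the cell surface. TGF-beta and activin receptors phosphorylate SMAD2 and SMAD3, BMP receptors phosphorylate SMAD1, SMAD5 and SMAD9, and either set joins SMAD4 to enter the nucleus. SMAD6, SMAD7, SKI and SKIL restrain the response, and several of them are themselves induced by it. In liver the TGF-beta branch is known for growth arrest, matrix production and epithelial-mesenchymal transition, and the BMP branch for the control of hepcidin and iron.

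GOLM1 had a log2 signal of 7.46 in the GP73 knockdown array and 9.13 in the control array, a difference of -1.67. It was the lowest difference of all measured genes in the values as deposited. A lower signal from bulk RNA can mean less RNA per cell or fewer cells that express the gene, which cannot be told apart here. A gene is called measured when its higher signal reached a log2 of 5.84, the median of that quantity over all genes, which held for 11206 genes. The central 95% of measured genes lay between -0.53 and 0.46, and their median difference was -0.01. The only error that could be computed is within an array: 92 genes had 2 rows of distinct value, and the SD between rows of 1 gene was 0.13 on the log2 scale. That SD leaves out the spread between cultures, RNA preparations and arrays. Of 18 markers of the hepatocyte lineage and of liver cancer, 15 had a row and 9 were measured, 2 of them higher and 7 lower in the knockdown array, with a median of -0.10. The plasma apolipoprotein APOH had 8.87 in the knockdown and 9.07 in the control array. The liver transcription factor FOXA2 had 6.97 in the knockdown and 7.23 in the control array. APOB had 5.80 in the knockdown array, below the floor, and 6.27 in the control array, a difference of -0.47. The 2 higher ones were APOA1 at 0.14 and APOA2 at 0.23, and APOA2 lay below the floor in the control array. ALB, AFP and GPC3 were below the floor in both arrays, with AFP at 2.56 in each. Of 12 leukocyte markers 3 were measured, all higher in the knockdown array and above the central 95% of measured genes. They were CD68, with 9.74 in the knockdown and 9.25 in the control array, a difference of 0.49, TYROBP at 0.51 and NKG7 at 0.47. In the control array NKG7 lay below the floor. PTPRC, which defines leukocytes, was near the bottom of the scale at 2.42 in the knockdown and 2.34 in the control array. Of 12 fibroblast markers 2 were measured, 1 higher and 1 lower, and of 10 endothelial markers 3, 1 higher and 2 lower. PECAM1, an endothelial adhesion protein, had 5.26 in the knockdown array, below the floor, and 5.98 in the control array, a difference of -0.72. The part of these markers in the members' differences was not tested.

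Of the 40 genes, 29 were measured and 11 lay below the floor in both arrays. The measured genes split almost evenly, 16 higher and 12 lower in the knockdown array and 1 equal, against 47.8% of all measured genes higher and 50.5% lower. After median centring of the arrays the split was 14 higher and 15 lower, and 35.8% of all measured genes were higher and 64.2% lower. The median difference of the 29, as deposited, was 0.06. Counting all 40, 23 were higher and 16 lower, where 57.8% of all genes with a row were higher and 37% lower. No member was at least 1.5-fold higher, where 1.08% of all measured genes were. At least 1.5-fold lower were 2 of the 29, SKIL and ID1, or 6.90%, where 1.55% of all measured genes were. Median centring added TGFBR2 to the lower ones, while the genes past 1.5-fold among all measured genes were 67 higher and 351 lower, against 121 and 174 as deposited. No member was 2-fold different, where 0.161% of measured genes were higher by that fold and 0.134% lower. At a log2 difference of at least 0.32 in size, 6 were higher (TGFB1, INHBB, LTBP1, TGFBR3, SMAD3 and TGFBI, 20.7% of the members against 8.24% of measured genes) and 4 were lower (SKIL, ID1, TGFBR2 and SMAD6, 13.8% against 11.5%, which is close to the share of all measured genes). Of those 6, only SMAD3, at 0.37, stayed past 0.32 after median centring, and TGFBR1, at -0.39, joined the lower ones. All 6 stayed past 0.32 after quantile normalisation and after removal of a lowess trend, the smallest being TGFBR3 at 0.371 and 0.368. TGFBR1 fell short under both, at -0.316 and -0.314, and BMPR2, at 0.333, joined the higher ones after lowess removal only. The share of all measured genes past 0.32 was not computed for any of these scalings. For 10 of the 29 the difference as deposited was smaller than the SD between rows of 1 gene.

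**Figure D1:**
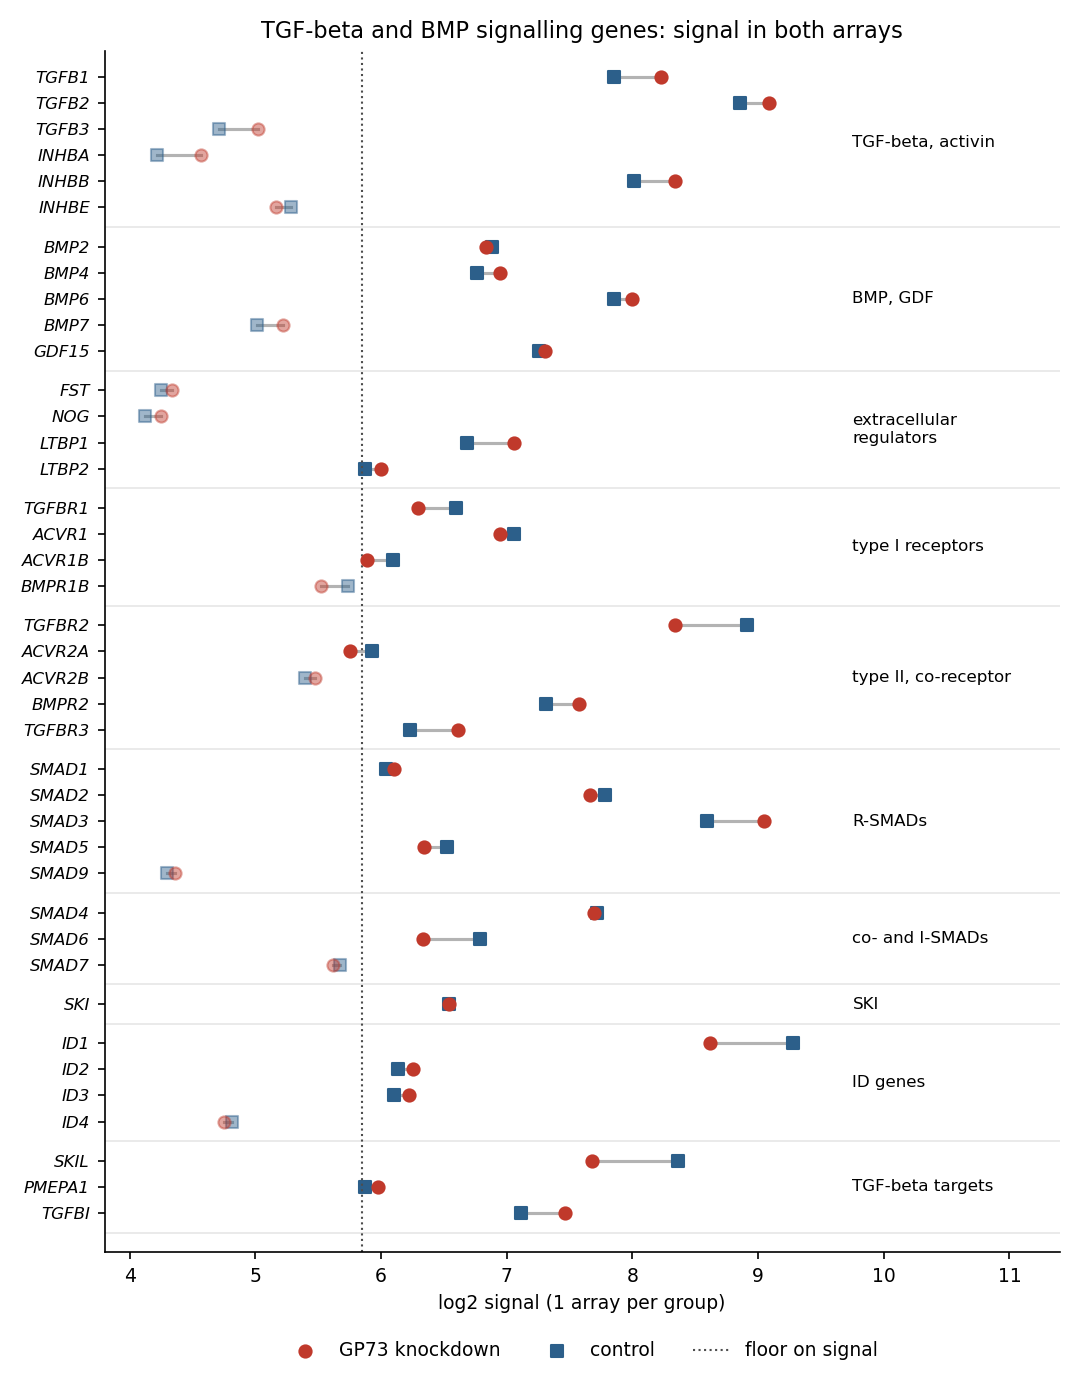
Log2 signal (horizontal axis) of the 40 TGF-beta and BMP signalling genes with a row, in the GP73 knockdown array (red circles) and the control array (blue squares), grouped by role; pale symbols are the 11 genes below the floor of 5.84 (dotted line) in both arrays. The widest gaps with the knockdown to the left belong to SKIL, ID1, TGFBR2 and SMAD6, and the widest gaps with the knockdown to the right, among measured genes, to SMAD3, TGFBR3, LTBP1 and TGFB1.

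Ligands of the TGF-beta and activin branch were higher in the knockdown array. TGFB1, the founding member of the family, had 8.23 in the knockdown and 7.86 in the control array, a difference of 0.37. TGFB2 had 9.08 in the knockdown and 8.86 in the control array, a difference of 0.22. INHBB, which codes for the beta B chain of activins and inhibins, had 8.34 in the knockdown and 8.01 in the control array, a difference of 0.33. All 3 measured genes of this group were therefore higher, by more than the SD between rows but inside the central 95% of measured genes. TGFB1 stood at rank 602 and INHBB at rank 846 from the highest of 11206. TGFB3 and INHBA were below the floor in both arrays, at 5.02 and 4.57 in the knockdown against 4.71 and 4.22 in the control array. The hepatocyte-derived chain INHBE was also below the floor, and was slightly lower at 5.16 in the knockdown and 5.28 in the control array.

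BMP ligands differed less. BMP4 had 6.95 in the knockdown and 6.76 in the control array, a difference of 0.19. BMP6, the BMP best known for inducing hepcidin in liver, had 8.0 in the knockdown and 7.85 in the control array, a difference of 0.14. BMP2 at -0.05 and GDF15, a stress-induced cytokine of the family, at 0.04 differed by less than the SD between rows. BMP7 was below the floor at 5.22 in the knockdown and 5.01 in the control array. Over all 7 measured ligands the median difference was 0.19, and 6 were higher.

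Proteins that hold or trap ligands were measured in part. LTBP1, which binds latent TGF-beta and stores it in the matrix, had 7.06 in the knockdown and 6.68 in the control array. Its difference of 0.38 was at rank 580 from the highest. LTBP2, a matrix protein of the same family, had 6.0 in the knockdown and 5.87 in the control array, a difference of 0.13 that was close to the 0.15 median of measured genes of similar signal. The antagonists FST, which traps activins, and NOG, which traps BMPs, were below the floor at 4.34 and 4.25 in the knockdown and 4.25 and 4.12 in the control array.

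Receptors went both ways, and the signalling receptors for TGF-beta were among the lower ones. TGFBR2, the type II receptor that binds TGF-beta itself, had 8.34 in the knockdown and 8.91 in the control array. Its difference of -0.57, just short of 1.5-fold lower, was at rank 197 from the lowest and outside the central 95% of measured genes. TGFBR1, the type I kinase that TGFBR2 activates, had 6.29 in the knockdown and 6.60 in the control array, a difference of -0.30. The other measured type I receptors were also lower. ACVR1B, the activin type I receptor, had 5.89 in the knockdown and 6.10 in the control array, a difference of -0.21. ACVR1, a type I receptor for BMPs and activins, had 6.95 in the knockdown and 7.05 in the control array, a difference of -0.10 that was smaller than the SD between rows. BMPR1B was below the floor, at 5.52 in the knockdown and 5.74 in the control array.

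The other receptors went either way. TGFBR3, the co-receptor betaglycan that presents ligand without a kinase of its own, had 6.61 in the knockdown and 6.23 in the control array, a difference of 0.38. BMPR2, the BMP type II receptor, had 7.58 in the knockdown and 7.31 in the control array, a difference of 0.26. ACVR2A, an activin type II receptor, had 5.75 in the knockdown array, under the floor, and 5.93 in the control array, a difference of -0.18. ACVR2B was below the floor in both, at 5.47 in the knockdown and 5.40 in the control array. Of the 7 measured receptors 5 were lower, with a median of -0.18. The median of the 7 ligands and that of the 7 receptors therefore lay on opposite sides of 0, at 0.19 and -0.18, a contrast of lists with no test.

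**Figure D2:**
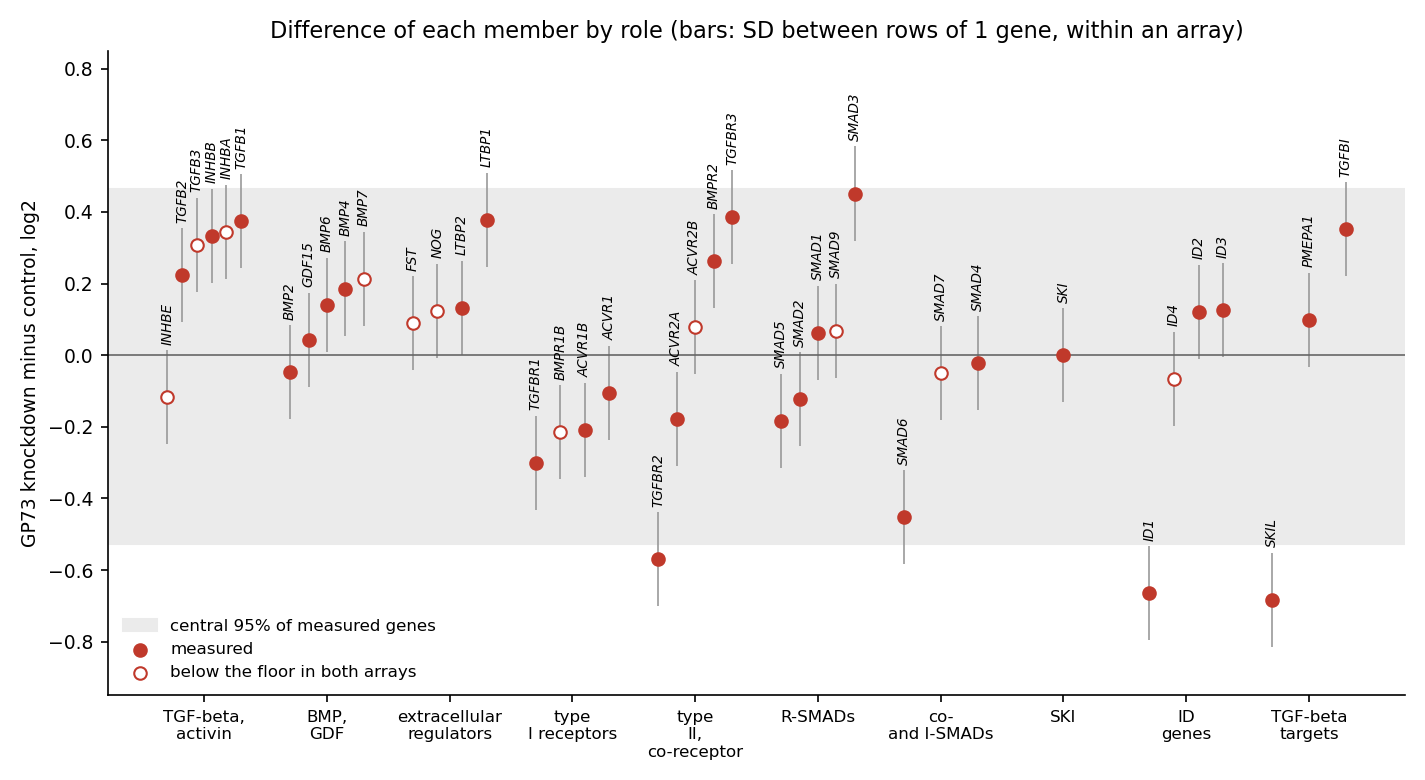
Difference of log2 signal, GP73 knockdown minus control (vertical axis), of each of the 40 genes by role; filled points were measured, open points lay below the floor in both arrays, bars are the SD of 0.13 between rows of 1 gene within an array, and the grey band is the central 95% of measured genes. Of the filled points 3 lie below the band (TGFBR2, ID1 and SKIL) and none above it.

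Among the SMADs the largest differences were in SMAD3 and SMAD6. SMAD3, the TGF-beta SMAD that binds DNA directly, had 9.04 in the knockdown and 8.59 in the control array, a difference of 0.45 and the highest of all measured members, at rank 316 from the highest of 11206. SMAD2, its partner in the same branch, had 7.66 in the knockdown and 7.78 in the control array, a difference of -0.12. SMAD6, an inhibitor of BMP signalling that is itself a BMP target, had 6.33 in the knockdown and 6.79 in the control array. Its difference of -0.45 was at rank 495 from the lowest.

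SMAD5, a BMP SMAD, was lower by more than the SD between rows, with 6.34 in the knockdown and 6.53 in the control array, a difference of -0.18. The remaining SMADs differed by less than that SD. SMAD1 had 6.10 in the knockdown and 6.04 in the control array. SMAD4, the common partner, had 7.70 in the knockdown and 7.72 in the control array. SMAD7, the inhibitor induced by TGF-beta and BMP alike, was below the floor at 5.62 in the knockdown and 5.67 in the control array, as was SMAD9 at 4.36 in the knockdown and 4.29 in the control array. The co-repressor SKI was listed at 6.54 in both arrays, identical to the last deposited digit. Identical values occurred in 190 measured genes, or 1.70%, and how they arose was not tested.

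SMAD6 and SMAD3 are neighbours on chromosome 15, with no other protein-coding gene between their starts in the RefSeq gene order of GRCh38.p14, and stood at -0.45 and 0.45. The same order puts TGFBI next to SMAD5 on chromosome 5, at 0.35 and -0.18. SMAD2 and SMAD7, with 2 protein-coding genes between them on chromosome 18, stood at -0.12 and -0.05. These 3 pairs were the closest in gene order, and in 2 of them the members did not share a direction. The next closest, BMP7 with PMEPA1 (0.21 and 0.10) and SMAD7 with SMAD4 (-0.05 and -0.02), each shared one. BMP7 and SMAD7 were below the floor in both arrays.

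The targets were compared next, the ID genes as BMP targets against SKIL, PMEPA1 and TGFBI as TGF-beta targets. Each group held 1 gene that was at least 1.5-fold lower and 2 measured genes that were higher, by 0.10 to 0.35. ID1, a helix-loop-helix protein that blocks differentiation factors and is a direct BMP target, had 8.62 in the knockdown and 9.28 in the control array, a difference of -0.66, or 1.58-fold lower, at rank 95 from the lowest. ID2 had 6.25 in the knockdown and 6.13 in the control array, a difference of 0.12. ID3 had 6.23 in the knockdown and 6.10 in the control array, a difference of 0.13. Both lay within the SD between rows, and ID1 alone of the 3 measured ID genes was lower. ID4 was below the floor, at 4.75 in the knockdown and 4.82 in the control array.

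SKIL, a co-repressor of SMADs that TGF-beta induces as a feedback, had 7.68 in the knockdown and 8.36 in the control array. Its difference of -0.68, or 1.61-fold lower, was the lowest of all members and at rank 80 from the lowest of 11206. PMEPA1, a membrane protein that retains SMADs and is induced by TGF-beta, had 5.97 in the knockdown and 5.87 in the control array, a difference of 0.10. TGFBI, a secreted matrix protein named for its induction by TGF-beta, had 7.47 in the knockdown and 7.12 in the control array, a difference of 0.35. SKIL and TGFBI, both taken as TGF-beta targets, thus differed in opposite directions. The median was 0.12 for the 3 measured ID genes and 0.10 for the 3 TGF-beta targets, so the groups did not separate. With means in place of medians they were -0.14 and -0.08, each drawn below 0 by its 1 low gene.

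The sequence before the start of SKIL and ID1 is shown because they were the only members past 1.5-fold, and that of SMAD6 because it holds a palindromic SMAD site. Each is the 250 bases upstream of the transcription start in RefSeq on GRCh38.p14, on the plus strand: chr3:170357465-170357714 for SKIL, chr20:31605039-31605288 for ID1 and chr15:66701986-66702235 for SMAD6. Capitals mark matches to GTCTAGAC (the SMAD palindrome), CAGAC or its complement GTCTG (a SMAD box), GGCGCC (a GC-rich SMAD palindrome), TGACGTCA (the cyclic AMP response element) and TATAAA (the TATA box, sought on the sense strand only). The palindromes read the same on either strand, and no 2 matches overlap in these windows.
SKIL: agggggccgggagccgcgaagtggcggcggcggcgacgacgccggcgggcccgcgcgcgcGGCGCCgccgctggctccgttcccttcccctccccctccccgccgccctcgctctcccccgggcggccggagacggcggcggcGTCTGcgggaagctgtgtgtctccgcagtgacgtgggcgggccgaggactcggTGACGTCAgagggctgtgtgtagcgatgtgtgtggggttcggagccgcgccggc
ID1: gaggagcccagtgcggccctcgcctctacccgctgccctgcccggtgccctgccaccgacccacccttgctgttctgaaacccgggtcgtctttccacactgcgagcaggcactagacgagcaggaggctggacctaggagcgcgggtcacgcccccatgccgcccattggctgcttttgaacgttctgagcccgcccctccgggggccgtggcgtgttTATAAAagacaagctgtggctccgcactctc
SMAD6: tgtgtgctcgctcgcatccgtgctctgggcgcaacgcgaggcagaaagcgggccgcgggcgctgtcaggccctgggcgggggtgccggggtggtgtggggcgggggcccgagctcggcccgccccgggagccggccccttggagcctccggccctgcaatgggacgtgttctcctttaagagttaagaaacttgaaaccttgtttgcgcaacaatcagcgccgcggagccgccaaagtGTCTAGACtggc

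These 3 windows held different matches. All 3 genes were lower in the knockdown array, as was TGFBR2, whose windows held none of the motifs. Windows of some members that were higher, among them LTBP1, INHBB and TGFBI, also held a SMAD box or GGCGCC. Whether matches go with direction was not tested. The SKIL window held GGCGCC starting 190 bases before the start, GTCTG at 107 and TGACGTCA at 54. The ID1 window held TATAAA at 31 and none of the other motifs. The SMAD6 window held GTCTAGAC at 12. Over all 35116 RefSeq windows of this length, GTCTAGAC was found in 0.182%, CAGAC or GTCTG in 38.0%, GGCGCC in 16.4%, TGACGTCA in 1.65% and TATAAA in 6.80%. For the members, 36 of 41 genes had an entry, with 68 windows, since some genes have several starts. Of these windows 1 held GTCTAGAC, 26 held CAGAC or GTCTG (38.2%), 16 held GGCGCC (23.5%), 2 held TGACGTCA (2.94%) and 7 held TATAAA (10.3%). A match describes these letters only, and no binding was measured.

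**Figure D3:**
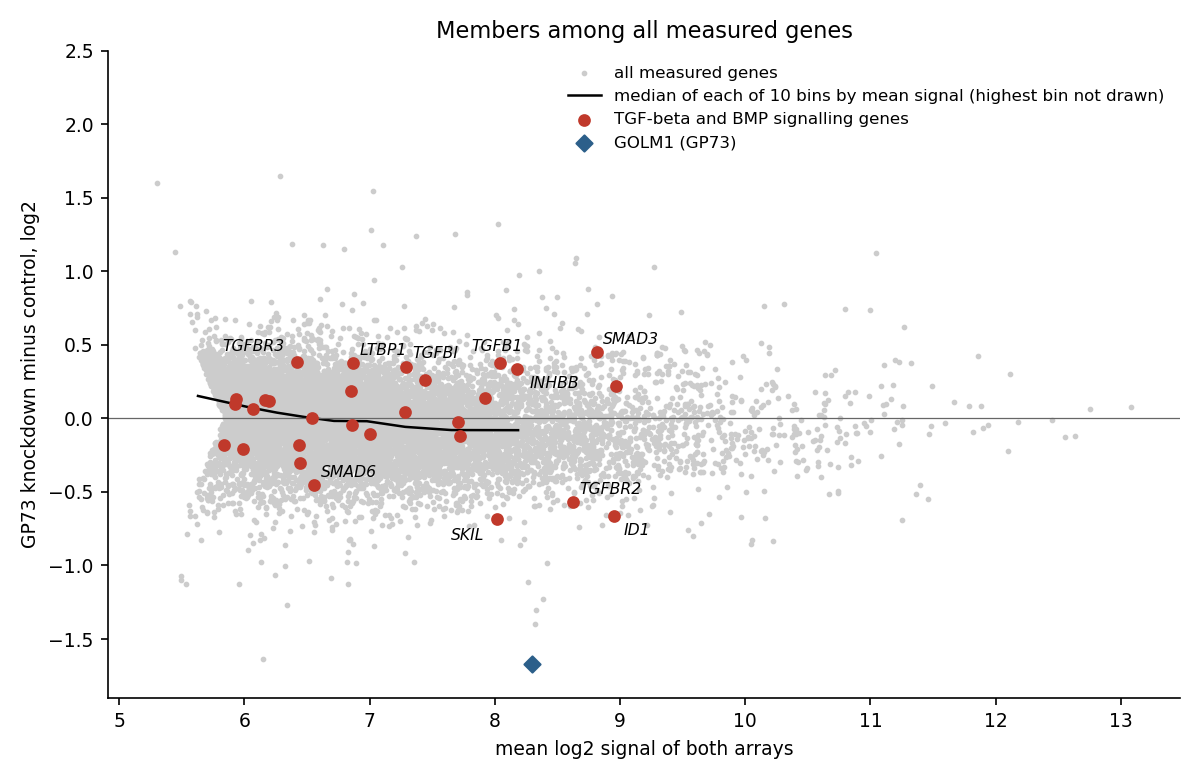
Difference of log2 signal, GP73 knockdown minus control (vertical axis), against the mean log2 signal of both arrays (horizontal axis) for the 11206 measured genes (grey), the 29 measured TGF-beta and BMP signalling genes (red, named from a log2 difference of 0.32 in size) and GOLM1 (blue diamond). The genes were put in 10 equal bins by mean signal. The black line, the median of each bin, falls from 0.15 in bin 1, the lowest, to -0.08 in bin 9. Bin 10, the highest, is not drawn. SMAD3, TGFB1, INHBB, SKIL, TGFBR2 and ID1 lie at the higher mean signals, with SMAD3, TGFBR2 and ID1 in bin 10.

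Differences on these arrays depended on signal level, so each member was also set beside genes of similar signal. Sorted by mean signal into 10 bins of equal size, the measured genes had a median of 0.15 in bin 1, the lowest, of -0.08 in bin 9 and of -0.07 in bin 10. Relative to the median of its own bin, SMAD3 stood at 0.52, TGFB1 at 0.45, INHBB at 0.41, TGFBI at 0.41, LTBP1 at 0.40 and TGFBR3 at 0.37. On the same scale SKIL stood at -0.60, ID1 at -0.59, TGFBR2 at -0.50 and SMAD6 at -0.46. All 3 measured TGF-beta and activin ligands were above their bin's median and all 3 measured type I receptors below it. LTBP2 at -0.02 and PMEPA1 at -0.05, higher in the deposited values, were below that median. Over the 29 members 14 were above and 15 below.

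**Figure D4:**
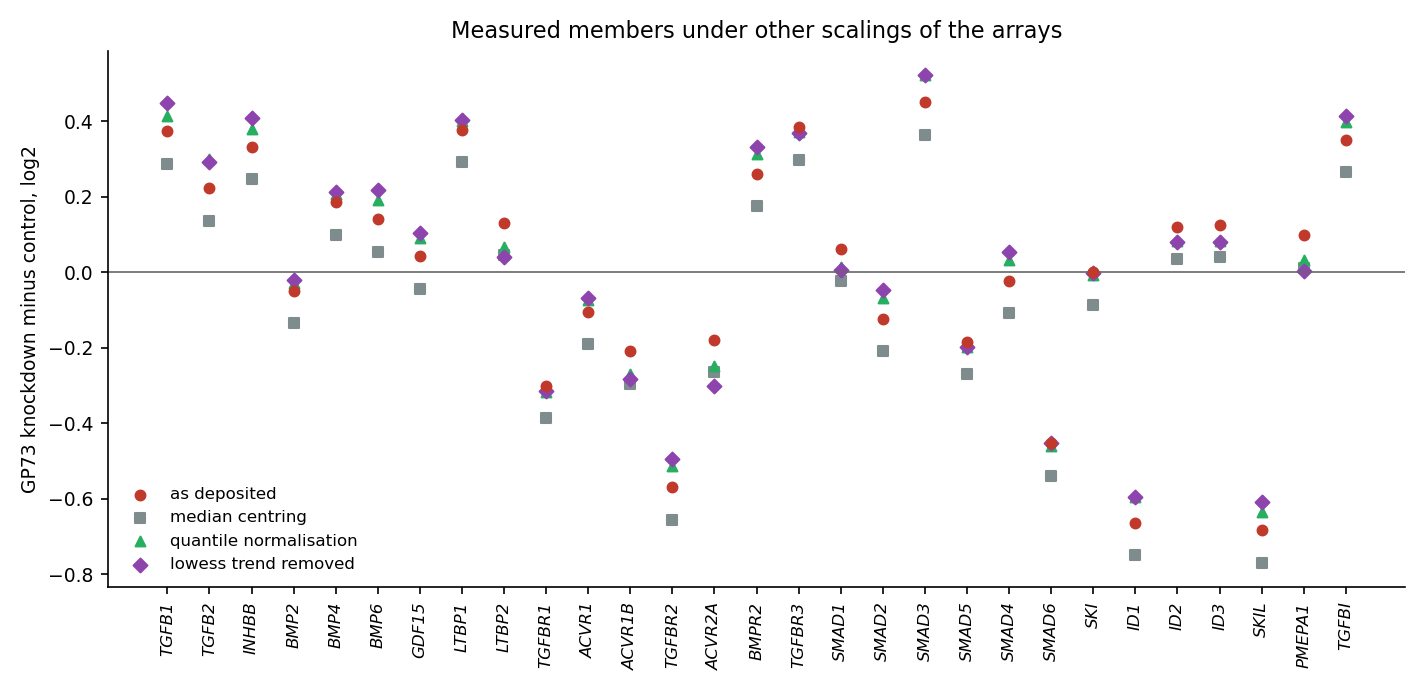
Difference of log2 signal, GP73 knockdown minus control (vertical axis), of the 29 measured members (horizontal axis) in the values as deposited and after median centring, quantile normalisation or removal of a lowess trend over mean signal. SKIL stays between -0.77 and -0.61, ID1 between -0.75 and -0.59 and SMAD3 between 0.37 and 0.52, while GDF15, SMAD1 and SMAD4 change side.

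Other genes of the pathway, outside the 41, were then described. Of 15 measured TGF-beta targets 14 were higher, with a median of 0.21, beside the 47.8% of all measured genes that were higher and their median of -0.01. At least 0.32 higher on the log2 scale were 4, LMCD1, TAGLN, JUNB and CCN2, where 8.24% of all measured genes were. After median centring, which lowers every difference by 0.086, JUNB and CCN2 fell short of 0.32. Under median centring, quantile normalisation and lowess removal alike, 14 of the 15 were higher, with list medians of 0.12, 0.23 and 0.24. LMCD1, a LIM protein, had 7.91 in the knockdown and 7.45 in the control array, a difference of 0.46. TAGLN, an actin-binding protein of contractile cells, had 6.15 in the knockdown array and 5.70 in the control array, below the floor, a difference of 0.45. JUNB, an AP-1 subunit, had 7.39 in the knockdown and 6.99 in the control array, a difference of 0.40. CCN2, a matricellular protein, had 6.95 in the knockdown and 6.63 in the control array, a difference of 0.33. The exception was FN1, fibronectin, at 11.87 in the knockdown and 11.93 in the control array. Counting also those below the floor, 20 of the 21 with a row were higher, where 57.8% of all genes with a row were. None of the 15 was 1.5-fold different, and SKIL, also a TGF-beta target, went the other way. The latent TGF-beta binding protein LTBP4 stands in this list and in that of latency proteins.

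Other BMP targets were mixed, as the ID genes were. BAMBI, a pseudoreceptor that is induced by BMP and TGF-beta and blocks them, had 7.72 in the knockdown and 8.23 in the control array, a difference of -0.52. HAMP, which codes for the iron hormone hepcidin, had 6.72 in the knockdown and 6.31 in the control array, a difference of 0.41. MSX1, a homeobox factor, had 6.18 in the knockdown and 5.95 in the control array, a difference of 0.23. SNAI2, the repressor Slug, which other signals also induce, had 7.37 in the knockdown and 6.22 in the control array, a difference of 1.15. Of the 5 measured, 3 were higher and 2 lower, with a median of 0.23. HEY1, a target of BMP and Notch signalling, had 5.68 in the knockdown array, below the floor, and 5.89 in the control array, a difference of -0.21.

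Of 10 measured extracellular antagonists and latency proteins 8 were higher, with a median of 0.17. They were led by THBS1, thrombospondin, which activates latent TGF-beta, with 9.03 in the knockdown and 8.66 in the control array, a difference of 0.37. FSTL3, an activin trap, stood at 0.30, BGN, the proteoglycan biglycan, at 0.29 and NRROS, which binds latent TGF-beta, at 0.28. In the control array BGN lay below the floor. Of the 5 other receptors and co-receptors 4 were higher, with ENG, the TGF-beta co-receptor endoglin, at 0.32, NEO1 at 0.30 and RGMA, a BMP co-receptor, at 0.25, while BAMBI, which stands in this list too, was lower. ACVRL1, a type I receptor of endothelial cells, had 5.93 in the knockdown array and 5.70 in the control array, where it did not reach the floor, so it counted only through its higher signal. Among all measured genes 47.8% were higher.

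Other ligands and intracellular regulators showed less. Of 6 measured ligands 5 were higher and 1, INHA, was equal, with a median of 0.08, but after median centring BMP1, GDF11 and INHA were lower and the median was -0.00094, so no direction holds for this list. GDF6 stood at 0.23, LEFTY2 at 0.15, LEFTY1 at 0.13 and GDF11 at 0.04, and GDF6 did not reach the floor in the control array. LEFTY1 and LEFTY2 are near-identical genes, so how the signal divides between them is not known. Of the 18 measured intracellular regulators 9 were higher and 9 lower, with a median of 0.00. The ubiquitin ligase WWP1 at -0.33 and the deubiquitinase USP15 at -0.27 were lowest, and the ubiquitin ligase NEDD4L at 0.24 and the SMAD partner FOXH1 at 0.23 were highest. In the control array FOXH1 did not reach the floor.

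**Figure D5:**
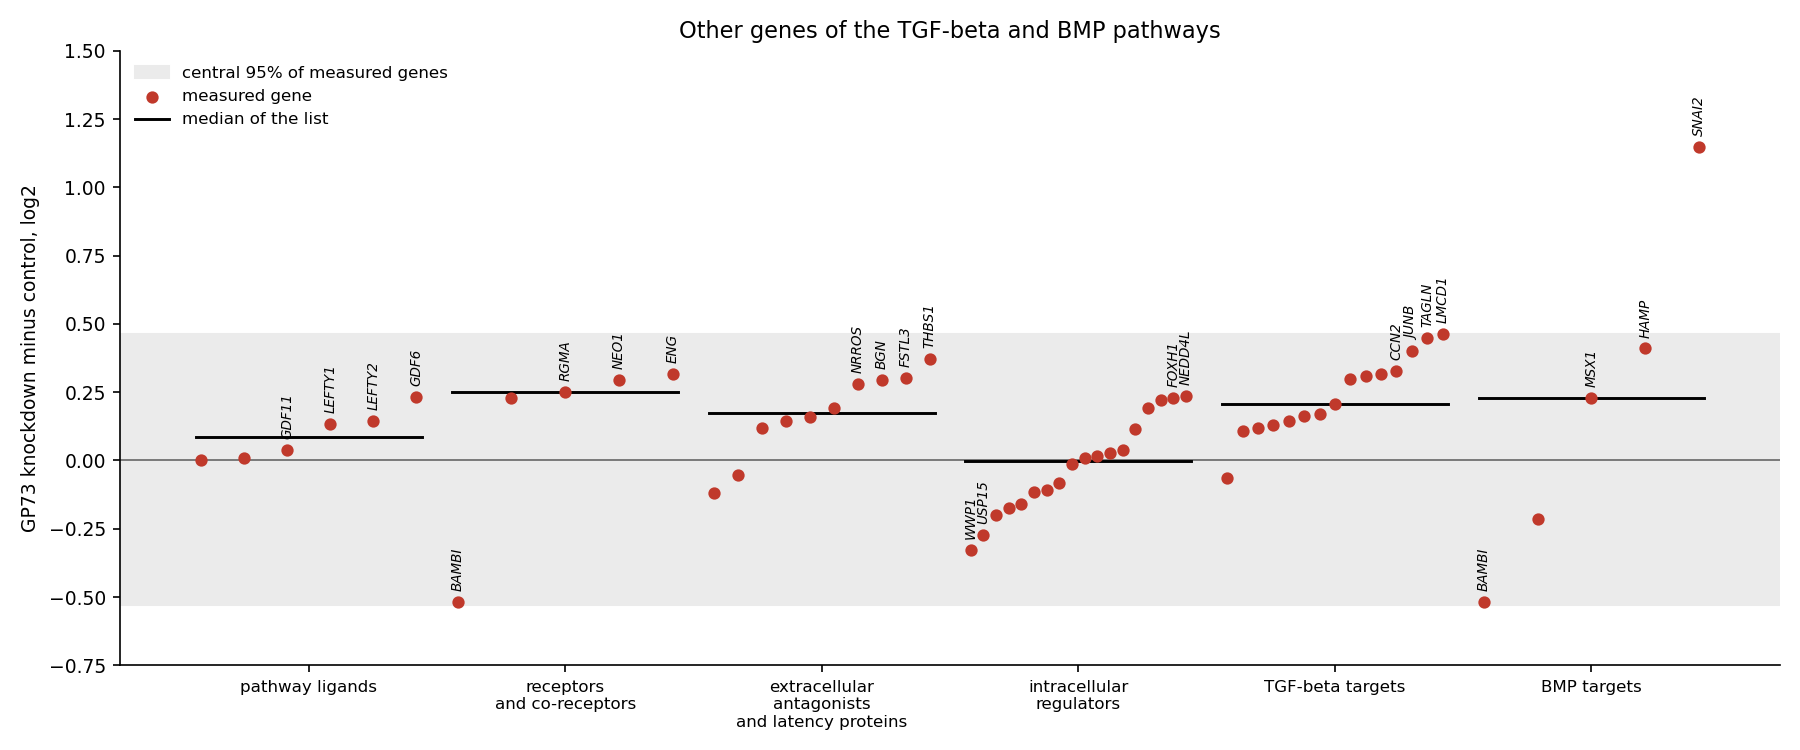
Difference of log2 signal, GP73 knockdown minus control (vertical axis), of each measured gene in 6 further lists of the pathway (horizontal axis), with the median of each list as a black line, the central 95% of measured genes in grey and the 4 largest absolute differences of each list named. The medians run from 0.00 for intracellular regulators to 0.25 for receptors and co-receptors, and BAMBI, drawn in both lists that hold it, and SNAI2 lie farthest from 0.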

How the data were processed

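The deposited table held 70523 log2 signals for each of 2 arrays. The submitters' processing notes name Affymetrix Expression Console as the authors' software. Not given in the sources used here were background correction, normalisation, log base, genome build and software version. The range of the values set the scale as log2. RNA input was 100 ng per array, per the labels' protocols. The median signal was 4.80 in the knockdown and 4.72 in the control array. Precision is limited by 1 array per group.

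The platform annotation gave 1 symbol for 23781 rows, several for 1543 and none for 45199, and older symbols were replaced from the NCBI gene table of GRCh38.p14. Where a gene had several rows (528 genes), the row of highest mean signal stood for it. Differences, counts past a fold and medians were computed with Python 3.11.15, numpy 2.4.6, pandas 2.3.3 and statsmodels 0.14.6, and tested on simulated data. Alternatives were median centring, quantile normalisation, removal of a lowess trend (span 0.3), no floor, a higher floor (75th percentile), averaging a gene's rows, lower and higher folds, and means for medians. All members are accounted for, and up to 4 genes of each further list, those with the largest absolute difference, are named. FN1, INHA, HEY1, ACVRL1 and the markers were named after their values were seen. Members and lists were chosen with earlier results of these data known. Promoter sequences are from RefSeq, and BMP2, BMP7, INHBE, NOG and SKI had no entry.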

Additional observations from a re-analysis of the deposited data

How the results depend on the processing

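Each measured member was recomputed under the alternatives, 161 values in all, and no difference moved by as much as the SD between rows of 1 gene. Since each member has 1 row, changing the floor or averaging rows could not alter its difference. Median centring shifts every difference by the same 0.086, less than that SD. Only quantile normalisation and the lowess step could have moved a member by that much. GDF15, SMAD1 and SMAD4 changed sign under some scaling of the arrays, and SKI, equal as deposited, was lower after median centring, so no direction holds for these 4. GOLM1 stayed between -1.75 and -1.59. As deposited, with a threshold of 0.32 on the log2 scale in place of 1.5-fold, 4 members were lower and 6 higher. With 2-fold, 0 were lower. After median centring, only SMAD3 of the 6 stayed past 0.32. With quantile normalisation or the lowess step all 6 did, and the lowess step added BMPR2, at 0.33. Median centring adds TGFBR2, at -0.66, to the genes past 1.5-fold. The medians of small groups followed which genes passed the floor. With a higher floor (75th percentile) the median was -0.66 for the ID genes (ID1 alone), -0.17 for the TGF-beta targets, -0.50 for the difference between them, -0.15 for type II receptors and the co-receptor, 0.16 for the receptor-activated SMADs, -0.022 for the common and inhibitory SMADs and -0.11 for the other receptors. With no floor the common and inhibitory SMADs stood at -0.051. With means the ID genes stood at -0.14, the TGF-beta targets at -0.078 and the other receptors at 0.12. The median of the ligands stayed above 0, at 0.10 to 0.22, that of the receptors below 0, at -0.28 to -0.10, and that of the other TGF-beta targets above 0, at 0.12 to 0.26. The median over all members was -0.02 after median centring, and that of the other ligands -0.00094. No paired analysis was possible because each group has 1 array, and no replicate could be left out. The signal floor took the place of a detection test, so a gene under it may still be expressed.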
